A study of Mus musculus with 24 samples.

Results

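The comparison described here is the earliest auxin time in undifferentiated cells, CTCF-AID mouse embryonic stem (ES) cells after 24 h of auxin against the same cells at 0 h. It uses 4 of the 24 RNA-seq libraries of the series, taken by their count columns: 2 libraries at 0 h without auxin and 2 at 24 h, numbered as replicates 1 and 2 in the labels. The cells are F123, an established hybrid mouse ES cell line, grown with leukemia inhibitory factor and serum replacement, and all groups carry the CTCF-AID degron. The treated medium held 1 µl of 500 mM auxin stock per ml and was renewed every 24 h. Further libraries are used only to follow the genes found at 24 h: ES cells after 48 and 96 h of auxin (2 each, sharing the 0 h libraries), and cells on days 2, 4 and 6 of neural progenitor differentiation with and without auxin (2 each), with cells from which auxin had been removed 2 days earlier, on day 4 or day 6. Every library with auxin comes from the degron line and no library with auxin from cells without it, so an effect of auxin itself and an effect of CTCF loss cannot be told apart in these data. The labels do not say whether replicates came from separate cultures, so p-values measure the spread between these libraries, which may be technical.

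CTCF is a zinc-finger protein that binds DNA at a long motif and, with the ring-shaped cohesin complex, anchors chromatin loops and domain boundaries. Many of its sites lie close to promoters, where it can help bring a promoter and a distant enhancer together. In a degron line the protein carries a plant-derived tag, and auxin sends the tagged protein to the proteasome while its gene is still transcribed. The series title names promoter-proximal CTCF binding and enhancer-dependent gene activation as its subject, and the 24 h libraries address which genes respond first.

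Totals were 24696374 to 59522138 counts in the 4 libraries. In ES cells all replicate 1 libraries were shallower (24696374 to 29909368 counts) than all replicate 2 libraries (51686150 to 61681404). The 2 numbers also differed in expression by a shift shared by all ES groups: replicate differences correlated across genes at 0.176 to 0.626 in 6 of 6 pairs of groups. Each comparison below was therefore made within replicate number, with the number as a block in the model. Levels are CPM, counts scaled to library size, a scale that compares libraries for 1 gene and not genes with each other. Ctcf mRNA, which a protein degron need not lower and which does not check protein loss, was 215 and 167 CPM at 0 h (replicates 1 and 2) and 233 and 219 CPM at 24 h, a log2 fold change of 0.24 ± 0.18 (SE, n = 2 against 2; edgeR adjusted p = 0.935). The undifferentiated state was visible in all 4 libraries. Pou5f1, the central pluripotency factor, lay at 423 to 543 CPM, and Nanog at 251 to 353 CPM.

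Of 20361 genes tested, 23 changed (0.113%) at an adjusted p below 0.05 in edgeR's quasi-likelihood test. Of these, 19 fell (0.0933% of genes) and 4 rose (0.0196%). The fallen genes ranged from a log2 fold change of -4.78 to -1.12 with a median of -2.31, a 4.95-fold loss, while the median of all genes was -0.01. In all 23 the 2 libraries at 24 h lay on 1 side of the 2 libraries at 0 h, as they did in 23.6% of all genes tested. The mean level of the fallen genes at 0 h had a median of 38.3 CPM, and that of all genes tested 8.72 CPM, on a scale not corrected for gene length. A fall is easier to call from a higher count, so this difference is not read as a trait of the fallen genes. The number of calls and their balance depended on the fit. With RLE size factors, and with halved counts, 16 genes were lower and 4 higher, a balance like that of the main fit. With the 8 ES libraries fitted without the block 0 genes passed, and without the 24 h library of replicate 1, or without that of replicate 2, 1 gene passed (Cyp1a1). Other fits called 279 to 993 genes with no such excess of lower ones: DESeq2 gave 159 lower and 150 higher, no filter on low counts 141 and 138, the 4 libraries alone 180 and 122, all 24 libraries without a block 171 and 136 (with 21 of the 23 genes among them), and all 24 with the block 437 and 556. At the edge of the threshold, Mrpl23, Snhg17 and Abca2 lay just inside with an adjusted p of 0.0471, and Mnd1, Fam110c and Nsmce4a just outside with 0.0537 to 0.0552.

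**Figure D1:**
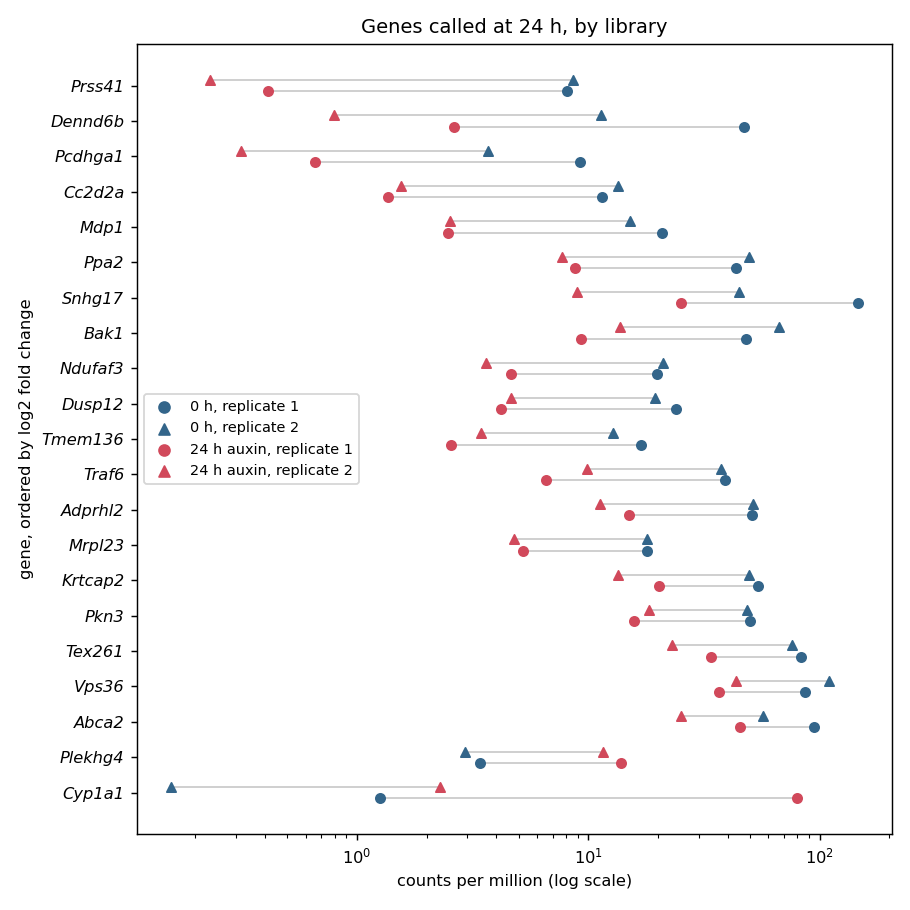
CPM (log axis) of 21 of the changed genes in each of the 4 libraries, circles for replicate 1 and triangles for replicate 2, blue at 0 h and red at 24 h, with a line joining the 2 times of a replicate number. In the 19 upper genes both red marks lie left of both blue marks, and in the 2 lowest genes they lie right of them.

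The title's subject makes the promoters of these genes the first thing to look at. RefSeq promoter windows (build GRCm38.p6, from 250 bases before to 50 bases after a start) were held for 17 of the 19 fallen genes and 2 of the 4 risen ones. They were searched on both strands for the letters CCNNNAGNNGGC, a core of the CTCF motif. In 6 fallen genes a match was found, and 5 of these are given here with 12 flanking bases on each side, read in the direction of the motif, the matched 12 letters in capitals.
Prss41, chr17:23844186-23844221, minus strand: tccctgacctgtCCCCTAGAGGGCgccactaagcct
Dennd6b, chr15:89196631-89196666, plus strand: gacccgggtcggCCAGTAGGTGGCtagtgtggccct
Adprhl2, chr4:126321736-126321771, minus strand: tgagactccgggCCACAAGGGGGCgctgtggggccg
Krtcap2, chr3:89246355-89246390, plus strand: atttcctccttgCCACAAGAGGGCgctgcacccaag
Vps36, chr8:22192743-22192778, plus strand: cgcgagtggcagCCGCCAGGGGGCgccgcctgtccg

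All 5 of these matches lie upstream of the RefSeq start. The middle of the letters is 47 bases before the start in Prss41, 50 in Adprhl2, 72 in Vps36 and 174 in Dennd6b. Krtcap2 has 2 RefSeq starts, 65 and 100 bases from the same match. In the GENCODE vM21 annotation Krtcap2 begins earlier, at chr3:89245966, so that this match lies inside the gene. The letters run in the direction of transcription in Prss41, Adprhl2, Krtcap2 and Vps36, and against it in Dennd6b. The stricter letters CCNNNAGGGGGC or CCNNNAGGTGGC were present in Dennd6b, Adprhl2 and Vps36. A match is a description of letters and does not show that CTCF was bound there.

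As a share, 6 of 17 fallen genes (35.3%) held the letters, against 1826 of the 12866 tested genes with a window (14.2%). For the stricter letters the shares were 23.5% and 3.33%. The risen genes held them in 0 of 2. The same share was counted in genes that did not pass the test but were at least 2-fold apart the same way in both replicate numbers. It was 19 of 54 (35.2%) among those lower at 24 h and 4 of 38 (10.5%) among those higher. Among genes with an adjusted p of 0.05 to 0.1, which overlap these sets, it was 13 of 30 (43.3%) for lower and 0 of 14 for higher genes. Mean GC content of the windows was 58.2% in the fallen genes, 61% and 63.1% in the 2-fold lower and higher genes, and 59.7% in all genes tested.

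**Figure D2:**
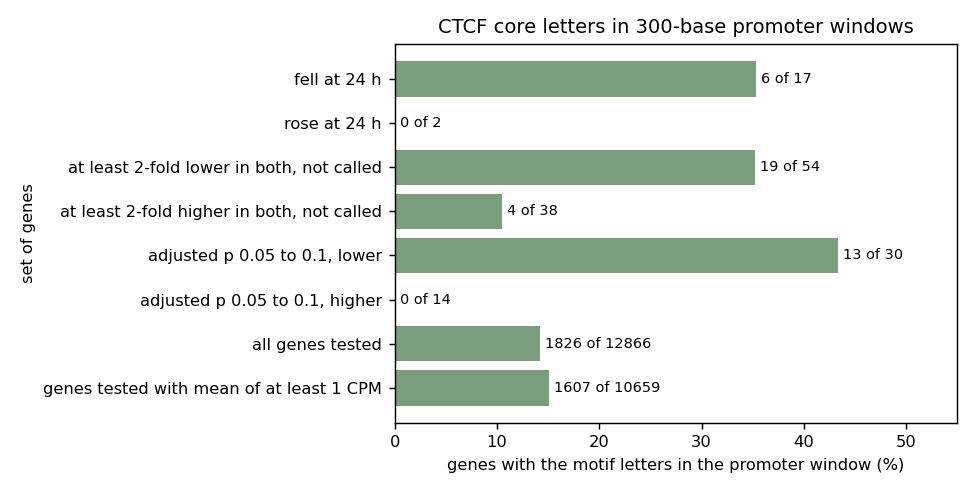
Share of genes (in percent) whose 300-base promoter window holds the CTCF core letters on either strand, by set of genes, with the number of genes written beside each bar. The fallen genes and both sets of lower genes that were not called stand at 35.2% to 43.3%, and all genes tested at 14.2%.

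Prss41, a serine protease of the testis, had the largest fitted loss among the 19 fallen genes. It was at 8.12 CPM in replicate 1 and 8.62 CPM in replicate 2 at 0 h, and at 0.412 and 0.232 CPM at 24 h, a log2 fold change of -4.78 ± 0.52 (edgeR adjusted p = 0.0237). Both replicates thus kept only a trace, with a drop of 94.9% in replicate 1 and 97.3% in replicate 2. The gene spans chr17:23836785-23844172 on the minus strand (GENCODE vM21, same build). Its neighbour Prss33, another serine protease 8116 bases away start to start, had 0.431 and 0.729 CPM at 0 h and 0.165 and 0.0663 CPM at 24 h and did not pass (adjusted p = 0.635).

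Dennd6b encodes a DENN-domain protein that activates Rab GTPases of membrane traffic. It went from 47 and 11.3 CPM to 2.64 and 0.795 CPM, a log2 fold change of -4.01 ± 0.36 (edgeR adjusted p = 0.0137). The starting levels of the replicates differed widely and the loss within each did not, at 94.4% and 93%. Dennd6b is thus a gene for which a comparison across replicate numbers and one within them differ in spread.

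Pcdhga1 is the first variable exon of the protocadherin gamma cluster, whose genes give neurons a surface identity and whose promoters are textbook CTCF targets. It was at 9.18 and 3.67 CPM at 0 h and at 0.66 and 0.315 CPM at 24 h (log2 fold change -3.67 ± 0.43, edgeR adjusted p = 0.0276). The other genes of the cluster lay lower as well without passing. All 18 tested members had a negative log2 fold change, 17 of them in both replicate numbers, and in 14 the 24 h libraries lay below the 0 h libraries (11.5% of all genes). Their median was -2.88. Pcdhgb2 had 3.76 and 0.867 CPM at 0 h and 0.247 and 0.0994 CPM at 24 h (adjusted p = 0.0998). Pcdhgc3, the member with the highest level at 24 h, had 6.78 and 3.8 CPM at 0 h and 4.78 and 3.21 CPM at 24 h. Counts of the cluster are low, replicate 1 starts higher (a summed 54.1 CPM against 21.6 CPM), and the members share their last exons, so reads could not be assigned to 1 member with certainty and the 18 values are not independent.

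Cc2d2a, a protein of the transition zone at the base of the primary cilium, dropped from 11.4 and 13.4 CPM to 1.36 and 1.56 CPM (log2 fold change -3.10 ± 0.35). The drop was 88.1% in replicate 1 and 88.4% in replicate 2. It was the 1 changed gene among 20 tested genes of a Hedgehog and cilium list, whose median was -0.02. Gli1, the reporter gene of Hedgehog signalling, had 17.2 and 10.9 CPM at 0 h and 6.35 and 7.93 CPM at 24 h and did not pass (adjusted p = 0.484).

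Bak1 encodes a pore-forming protein of the mitochondrial outer membrane that carries out apoptosis. It was at 48.2 and 66.3 CPM at 0 h and at 9.28 and 13.7 CPM at 24 h, a log2 fold change of -2.33 ± 0.21 (edgeR adjusted p = 0.0137). It was the 1 changed gene of 15 tested Bcl2 family members, whose median was -0.04. Bax, the related pore former, had 164 and 121 CPM at 0 h and 132 and 104 CPM at 24 h (adjusted p = 0.919). Traf6, a ubiquitin ligase downstream of Toll-like and interleukin-1 receptors, went from 39.1 and 37.5 CPM to 6.56 and 9.9 CPM (log2 fold change -2.25 ± 0.26). The 24 h libraries of Bak1 and Traf6 were far from overlapping those of 0 h. Bak1 overlaps Ggnbp1 on the opposite strand, which had 19.9 and 12.1 CPM at 0 h and 31.9 and 18.7 CPM at 24 h and did not pass.

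Products that work in mitochondria were among the fallen genes. Ppa2, the mitochondrial pyrophosphatase, went from 43.2 and 49.5 CPM to 8.74 and 7.7 CPM, with a log2 fold change of -2.50 ± 0.22 (edgeR adjusted p = 0.0137). Ndufaf3, an assembly factor of respiratory complex I, went from 19.8 and 21 CPM to 4.62 and 3.63 CPM. Mrpl23, a protein of the large mitochondrial ribosomal subunit, had 18 CPM in both 0 h libraries and 5.2 and 4.79 CPM at 24 h. In these 3 genes the replicates were close at both times. Ndufaf3 overlaps Impdh2 on the opposite strand, which had 347 and 384 CPM at 0 h and 324 and 362 CPM at 24 h, and the strand setting of the counting is not given in the sources used here.

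Phosphatases and kinases made up a further part. Mdp1, a small magnesium-dependent phosphatase, dropped from 20.8 and 15.1 CPM to 2.47 and 2.52 CPM (log2 fold change -2.83 ± 0.30). Dusp12, a dual-specificity phosphatase, dropped from 23.9 and 19.5 CPM to 4.21 and 4.65 CPM. Pkn3, a protein kinase, dropped from 50.1 and 48.5 CPM to 15.8 and 18.2 CPM. In all 3 the 24 h libraries lay below the 0 h libraries in both replicate numbers. Pkn3 and Dusp12 overlap tested genes on the opposite strand, Zdhhc12 for Pkn3 and Gm26620 and Gm9929 for Dusp12, none of which passed.

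Proteins of membranes, sugar transfer and sorting followed. Krtcap2, a subunit of the oligosaccharyltransferase that glycosylates proteins in the endoplasmic reticulum, had 53.8 and 49.3 CPM at 0 h and 20.3 and 13.4 CPM at 24 h, and it overlaps Trim46 on the opposite strand, which was at most at 4.28 CPM. Vps36, an ESCRT-II protein that sorts receptors into endosomal vesicles, had 86 and 109 CPM at 0 h and 36.9 and 43.4 CPM at 24 h. Abca2, a lipid transporter of endosomes and lysosomes, had 94.8 and 57 CPM at 0 h and 45.1 and 25.2 CPM at 24 h. Its log2 fold change of -1.12 ± 0.15 was the smallest of the fallen genes. Tmem136, Tex261, Adprhl2 (which removes ADP-ribose from serine residues) and the noncoding snoRNA host gene Snhg17 complete the list, with log2 fold changes of -2.30, -1.51, -1.98 and -2.46. Snhg17 had a wide replicate gap, at 146 and 44.8 CPM at 0 h and 25.1 and 8.89 CPM at 24 h.

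Of the 4 risen genes, Cyp1a1 and Plekhg4 started low. Cyp1a1, a cytochrome P450 and the standard target gene of the aryl hydrocarbon receptor, had 1.25 CPM in replicate 1 and 0.158 CPM in replicate 2 at 0 h, and 80.1 and 2.29 CPM at 24 h. The log2 fold change was 5.31 ± 0.51 (edgeR adjusted p = 0.0173). Both replicates went up, but to very different levels, and the libraries of the 2 numbers at 24 h are further apart than for any other changed gene. The size of the rise differed as well, with a log2 ratio of 5.52 in replicate 1 and 2.08 in replicate 2 (0.5 CPM added). Plekhg4, a guanine nucleotide exchange factor, went from 3.41 and 2.94 CPM to 13.8 and 11.6 CPM, and Kctd19, which overlaps it on the opposite strand, stayed below 0.71 CPM in all 4 libraries.

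Among 8 tested genes of the aryl hydrocarbon receptor list, Cyp1a1 was the 1 that passed, and the median was 0.60. Cyp1b1, a related P450, had 5.8 and 2.01 CPM at 0 h and 41.2 and 5.02 CPM at 24 h (adjusted p = 0.183). Aldh3a1, an aldehyde dehydrogenase, had 0.471 and 0.118 CPM at 0 h and 1.07 and 0.795 CPM at 24 h. Ahrr, the repressor of the receptor, had 0.549 and 0.453 CPM at 0 h and 3.05 and 0.298 CPM at 24 h, and its sign turns without either the 0 h or the 24 h library of replicate 1 (-0.17 and -0.01). Cyp1a1, Cyp1b1, Aldh3a1 and Ahrr had the higher level in replicate 1 both at 0 h and at 24 h.

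The plain within-number ratios widen the view beyond the test. Among 14883 genes with a mean of at least 1 CPM, 96 (0.645%) were at least 2-fold lower at 24 h in both replicate numbers and 62 (0.417%) at least 2-fold higher. A single gene (0.00672%) was 2-fold apart in opposite ways. All 23 changed genes were in these sets, so 77 lower and 58 higher genes were large in both numbers without passing the test. Alone, replicate 1 gave 695 genes with a 2-fold ratio and replicate 2 gave 326.

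**Figure D3:**
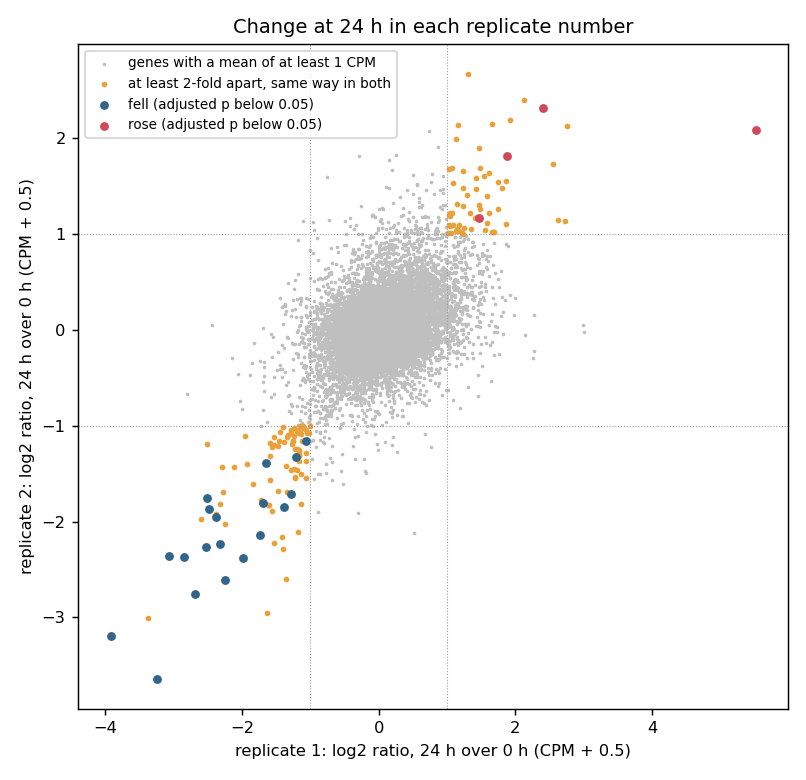
Log2 ratio of 24 h over 0 h in replicate 1 (x axis) and replicate 2 (y axis) for genes with a mean of at least 1 CPM, computed on CPM with 0.5 added. The 19 fallen (blue) and 4 risen (red) genes lie in the corners with the genes at least 2-fold apart the same way in both numbers (orange).

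Of the lower genes that did not pass, those with the largest mean ratio included Nkd2, a feedback antagonist of Wnt signalling. Nkd2 had 2.98 and 6.45 CPM at 0 h and 0.619 and 0.398 CPM at 24 h (log2 fold change -3.26, adjusted p = 0.0998). Hddc3 had 2.86 and 4.43 CPM at 0 h and 0.206 and 0.712 CPM at 24 h. Scn3a, a sodium channel, Ube2cbp, Comtd1 and Cgref1 had log2 fold changes of -3.78, -2.70, -2.44 and -2.21 and adjusted p values of 0.0701 to 0.156. The pseudogene Smt3h2-ps had 4.67 and 3.65 CPM at 0 h and 0 and 0.0166 CPM at 24 h (adjusted p = 0.154), and its reads may be shared with the parent gene. Its level also varied widely between replicates of the same group. It was at 2.64 and 0.0172 CPM at 96 h, and at 2.115 and 0.0279 CPM in day 6 controls.

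Of the higher genes that did not pass, Fam110c had 0.784 and 4.08 CPM at 0 h and 8.21 and 19.5 CPM at 24 h (adjusted p = 0.0552). Entpd1, the ectoenzyme CD39 that breaks down extracellular ATP, had 0.196 and 0.355 CPM at 0 h and 3.59 and 2.34 CPM at 24 h (adjusted p = 0.0605). Col14a1, a collagen, had 0.706 and 0.434 CPM at 0 h and 4.78 and 4.44 CPM at 24 h. Nmbr, the neuromedin B receptor, Nutm1, Igfbpl1 and Htra3 had log2 fold changes of 3.18, 2.63, 2.18 and 2.52. These genes began near or below 1 CPM in most libraries, where the fitted ratio is least certain.

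The later ES times share the 0 h libraries with this comparison, so their values are set side by side and are not independent support. At 48 h all 19 fallen genes were lower and 15 passed (0.0982% of all genes were lower at 48 h), with a median log2 fold change of -1.80 against -2.31 at 24 h. At 96 h all 19 were lower and 18 passed (1.6% of all genes), with a median of -1.73. The change was smaller than at 24 h in 18 of 19 genes at 48 h and in 17 at 96 h. These genes were chosen by their 24 h change, which favours large values at 24 h. Smaller values at later times therefore do not show a recovery. Prss41 stayed at 0.237 and 0.287 CPM at 48 h and 0.502 and 0.172 CPM at 96 h. Dennd6b was at 4.42 and 1.27 CPM and then 4.05 and 2.29 CPM, above its 24 h levels. The 4 risen genes passed at both later times (0.0982% and 1.45% of all genes were higher), and Cyp1a1 reached 97.5 and 6.91 CPM at 48 h and 124 and 11.6 CPM at 96 h.

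The differentiation libraries are independent of the 4 ES libraries, and they were tested on their own, auxin against control on each day. On day 2, 19 of 19 fallen genes passed as lower, against 8.43% of 22587 tested genes. On day 4 it was 18 of 19 (11.8% of all genes) and on day 6 again 18 of 19 (15.2%). The exception on both days was Abca2, with log2 fold changes of -0.09 and -0.08. The 4 risen genes passed as higher on all 3 days, against 9.84%, 11.8% and 14% of all genes. The median log2 fold change of the fallen genes was -2.16, -1.84 and -1.38 on days 2, 4 and 6.

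Bak1 ran against that decline: it was at 72.4 and 73.5 CPM in day 2 controls and at 14.6 and 13.9 CPM with auxin, and at 58 and 61.4 CPM in day 6 controls and 4.63 and 5.07 CPM with auxin. Snhg17, Adprhl2 and Krtcap2 had a slightly larger fitted change on day 6 than on day 2, a difference that was not tested. Their log2 fold changes were -1.39 ± 0.08, -1.31 ± 0.08 and -1.07 ± 0.11 on day 2. On day 6 they were -1.53 ± 0.08, -1.34 ± 0.08 and -1.17 ± 0.11. The largest values in these genes were those of day 4, at -2.085, -1.69 and -1.37. Prss41 was at 6.54 and 7.29 CPM in day 2 controls and at 0.265 and 0.159 CPM with auxin (log2 fold change -5.04 ± 0.24). Cyp1a1 was at 2.42 and 2.33 CPM in day 2 controls and at 15.6 and 14.2 CPM with auxin. In Bak1, Prss41 and Cyp1a1 the auxin libraries lay apart from the controls on each day named.

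**Figure D4:**
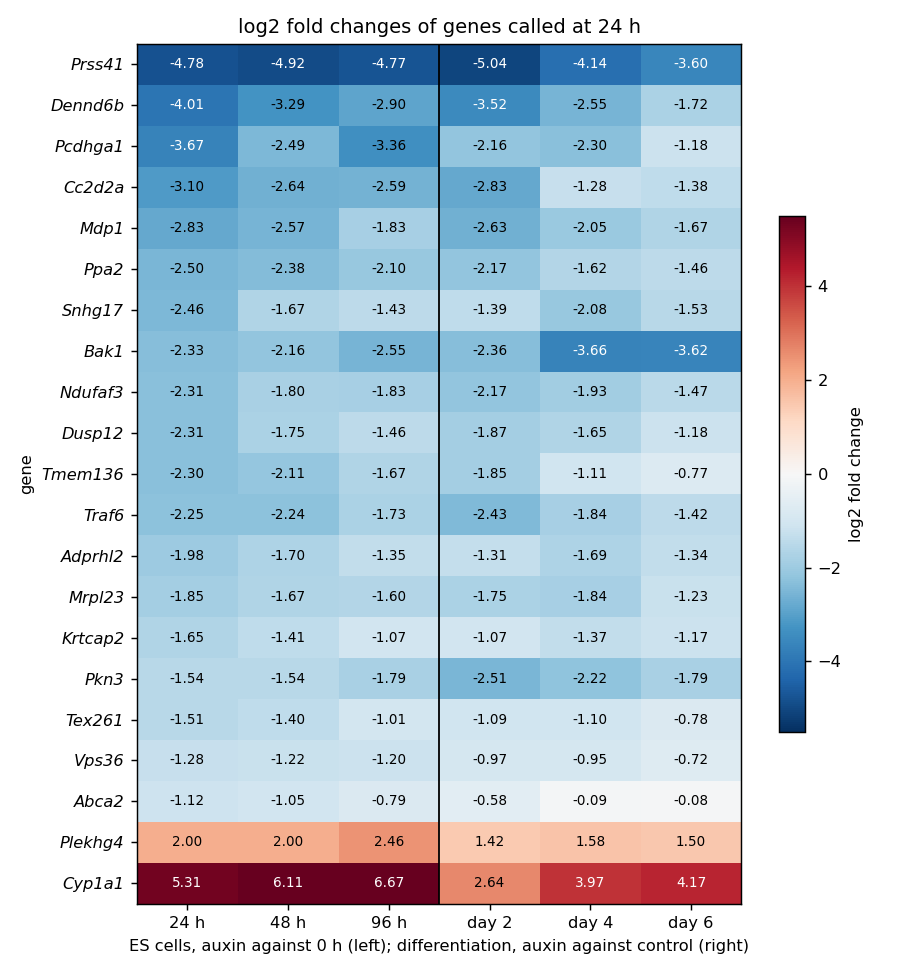
Log2 fold changes of 21 of the changed genes in ES cells at 24, 48 and 96 h of auxin (left of the line, all against the same 0 h libraries) and in differentiating cells on days 2, 4 and 6 (right, auxin against control of the same day), blue for lower and red for higher. All 19 fallen genes are blue and the 2 risen genes shown are red in each column, with Abca2 near 0 on days 4 and 6.

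Genes that were 2-fold apart in both ES replicate numbers without passing the test were followed in the same libraries. Of the 76 tested lower ones, 72 passed as lower on day 2, 68 on day 4 and 62 on day 6. The shares of all genes passing as lower were 8.43%, 11.8% and 15.2%. Of the 58 higher ones, 53, 45 and 42 passed as higher, against 9.84%, 11.8% and 14% of all genes. In the higher set 1, 6 and 8 genes passed as lower (1.72%, 10.3% and 13.8%), on days 4 and 6 close to the share of all genes. Nkd2 was at 7.19 and 7.66 CPM in day 2 controls and 0.607 and 0.54 CPM with auxin, and Fam110c at 1.86 and 1.93 CPM against 8.83 and 9.23 CPM.

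Levels after auxin washout are given without a test. At 2 days after the day 4 washout, Traf6 was at 54.1 and 54.9 CPM, Vps36 at 93.3 and 92.9 CPM and Cc2d2a at 21.7 and 22.3 CPM, while their levels on day 4 with auxin had been 14.6 and 16.1, 47.5 and 48.4, and 11.3 and 10.4 CPM. In day 6 controls Traf6 was at 53.7 and 55.4 CPM, Vps36 at 96.8 and 96.5 CPM and Cc2d2a at 32.5 and 32.9 CPM, so that Cc2d2a after washout lay below its control levels. Bak1 was at 25.4 and 26.3 CPM after that washout, between its day 6 levels with auxin and in controls. Prss41 was at 1.3 and 1.47 CPM, also between its day 6 levels of 0.267 and 0.344 CPM with auxin and 3.75 and 3.69 CPM in controls. Mrpl23 was at 7.83 and 6.97 CPM, near its 6.67 and 6.22 CPM on day 6 with auxin.

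The fallen genes were compared with the nearest tested protein-coding gene on each side. Of 38 such neighbours 0 passed edgeR's test, and 6 had an unadjusted p below 0.05 and were lower (2.52% of all genes tested). In number, 29 of 38 neighbours had a negative log2 fold change, against 51.3% of all genes, and the median was -0.18. The 6 were Prss33, Plxnb2, Pcdhga2, Snhg11, Tekt2 and Npdc1. Pcdhga2 overlaps Pcdhga1 and shares its last exons, so its reads may not be separate. Prss33 had only 0.431 and 0.729 CPM at 0 h. Impdh2, Gm26620, Trim46 and Zdhhc12, also among the 38, overlap their fallen genes on the opposite strand. Plxnb2, a semaphorin receptor beside Dennd6b, had 161 and 173 CPM at 0 h and 121 and 129 CPM at 24 h. Of the 8 neighbours of risen genes 0 passed and 0 had an unadjusted p below 0.05.

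Pluripotency genes had changes too small or too variable to pass. Of 17 core factors 0 passed and the median was -0.17, and 3 had an unadjusted p below 0.05, as had 6.17% of all genes tested. Pou5f1 was at 527 and 543 CPM at 0 h and 423 and 488 CPM at 24 h (log2 fold change -0.24 ± 0.15, adjusted p = 0.919). Sox2 was at 302 and 256 CPM at 0 h and 272 and 241 CPM at 24 h. Fgf4, a growth factor that primes ES cells to differentiate, was at 197 and 176 CPM at 0 h and 133 and 125 CPM at 24 h (log2 fold change -0.53 ± 0.13, adjusted p = 0.259). Of 18 naive genes 0 passed and 4 had an unadjusted p below 0.05. Dppa3, a maternal factor that protects DNA methylation, was at 15.2 and 10.8 CPM at 0 h and at 45.2 and 33.9 CPM at 24 h, a log2 fold change of 1.61 ± 0.27 with an adjusted p of 0.0911.

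Genes of the 2-cell-like state, a rare state of ES cultures that resembles the early embryo, leaned to one side. All 21 tested members had a positive log2 fold change, 19 of them in both replicate numbers, with a median of 0.74, 0 passing and 13 with an unadjusted p below 0.05 (3.65% of all genes were so and higher). Zscan4a was at 33.2 and 32.8 CPM at 0 h and at 37.3 and 68.9 CPM at 24 h. Usp17lb was at 9.72 and 10.2 CPM at 0 h and 19.5 and 20.9 CPM at 24 h. Summed over the list, the level went from 261 to 330 CPM in replicate 1 and from 263 to 535 CPM in replicate 2. Members of the Zscan4, Usp17l and Tdpoz families are near copies of each other and share reads, so they do not count as separate observations.

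Smaller medians were found in other lists. The 19 tested DNA replication genes had a median of -0.21 with 18 negative, 21 p53 targets -0.29 with 19 negative, and 22 cholesterol synthesis genes -0.20 with 20 negative, with 0 passing in each and 2, 3 and 3 members lower at an unadjusted p below 0.05, against 2.52% of all genes. Rrm2, a subunit of ribonucleotide reductase, was at 643 and 957 CPM at 0 h and 518 and 657 CPM at 24 h. Ccng1, a p53 target, was at 451 and 513 CPM and then 379 and 392 CPM. CTCF and cohesin genes had a median of -0.01, with 0 of 24 passing and Stag1, a cohesin subunit, at 143 and 155 CPM at 0 h and 198 and 228 CPM at 24 h (adjusted p = 0.265). Of 34 Hox genes 0 passed, 22 were higher and 5 were higher at an unadjusted p below 0.05, against 3.65% of all genes. Of 22 germline genes 1 fell, Prss41, 17 were higher and the median was 0.25, with 5 higher and 2 lower at an unadjusted p below 0.05. Of 16 Wnt genes 0 passed, and 2 were higher and 1 lower at an unadjusted p below 0.05.

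**Figure D5:**
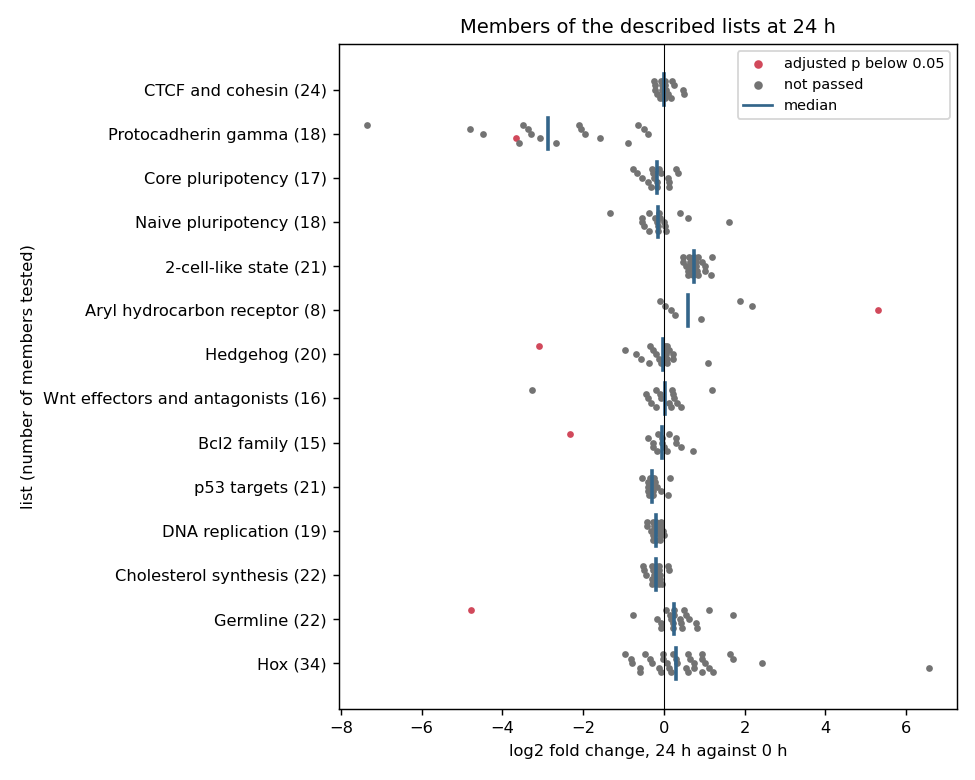
Log2 fold change at 24 h of each tested member of 14 gene lists (number of members in brackets), red where the adjusted p is below 0.05 and grey otherwise, with the list median as a blue bar. The protocadherin gamma members lie left of 0 and the 2-cell-like genes right of 0, and 5 lists hold a single red point each.

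Marker genes of other cell types were read in the same libraries. Summed over their lists, fibroblast or feeder markers were at 233 and 418 CPM at 0 h and 286 and 494 CPM at 24 h, trophoblast markers at 149 and 220 CPM and then 214 and 227 CPM, neural progenitor markers at 118 and 97.3 CPM and then 110 and 126 CPM, and endoderm markers at 8000 and 7260 CPM and then 9070 and 7140 CPM. Of these lists 0 of 16, 12, 10 and 18 tested genes passed, and their part in the results was not tested. In bulk RNA, fewer cells of a type and less RNA per cell cannot be told apart. Vcan, a matrix proteoglycan, was at 81.4 and 29.6 CPM at 0 h and 47.7 and 26 CPM at 24 h, with an adjusted p of 0.919, and its log2 fold change of -0.52 turned to 0.0208 without the 0 h library of replicate 1.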

How the data were processed

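The authors deposited whole-number read counts per gene, 1 column per library, with no normalization. The submitters' processing notes name HTSeq, STAR and edgeR, and mm10 as the build. Not given in the sources used here are versions, annotation release and strand setting. Of the counts from 1 to 20, 66.2% to 78% per ES library were even, so halved counts were tried. The table holds 51697 named genes, and 1 line without a name was left out. Groups were read from sample titles.

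With R 4.3.3 and edgeR 4.0.16, genes were kept by filterByExpr (minimum count 10, minimum total 15), scaled by TMM and fitted by the quasi-likelihood test to the 8 ES libraries with 1 mean per group and the replicate number as a block. The number pairs the samples because the replicate differences of 6 of 6 pairs of ES groups correlated above 0.1. Chi-square values of 96.6 to 159 per gene show that replicates are not copies of 1 library. The 16 differentiation libraries were fitted alone with 1 mean per group and no block. The Benjamini-Hochberg adjustment ran over all tested genes, at a threshold of 0.05. Standard errors come from the fold change and its F statistic. Ratios within a replicate number add 0.5 CPM and ask for a mean of at least 1 CPM. As a check of the code, the fit was run on counts simulated from its own model with planted changes. That run does not measure how often calls in the real libraries are false.

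Coordinates come from GENCODE vM21 by symbol, for 95.9% of genes tested, and promoter windows from RefSeq. The genes and lists were chosen with earlier results of these data known, so list counts carry no test. Genes named are all changed genes, up to 8 further genes each way among those 2-fold apart in both numbers, Ctcf, Vcan, Pou5f1, Nanog, Sox2, up to 4 smallest-p members of each described list and the neighbours of changed genes. Bax, Pcdhgc3 and Zscan4a were added after their values were seen. The protocadherin alpha and mitochondrially encoded genes are not analysed here. Alternatives, DESeq2 1.42.0 among them, are given in the closing section. Leaving out single differentiation libraries was chosen after seeing the data. Some genes and 1 site that meet these rules are not reported here.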

Additional observations from a re-analysis of the deposited data

Results flagged for a closer look

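Among the named genes that were at least 2-fold apart the same way in both ES replicate numbers, 4 that did not pass the test at 24 h went the opposite way in differentiating cells, with both auxin libraries beyond both controls. The difference between ES cells and differentiating cells was not tested. Cyp1b1, higher in ES cells, had a log2 fold change of -1.91 on day 4 (60.7 and 61.3 CPM in controls, 15.2 and 17.1 CPM with auxin) and of -0.57 on day 6. Col14a1, higher in ES cells, had -0.69 on day 6, after 2.86 on day 2. Igfbpl1, higher in ES cells, had -2.07 on day 6, after 2.00 on day 2. Smt3h2-ps, lower in ES cells, had 7.15 on day 2, from 0.017 and 0 CPM in controls to 0.0948 and 2.68 CPM with auxin, a value set by 1 library and not past the threshold (adjusted p = 0.0742).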

How the results depend on the processing

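Of the 23 genes changed at 24 h (19 fell, 4 rose), 20 to 23 were also called with RLE size factors (20), halved counts (20), DESeq2 (309 called in all, 159 lower and 150 higher), no filter on low counts (279, 141 and 138), the 4 libraries alone with the replicate block (302, 180 and 122), all 24 libraries without the block (307, 171 and 136; 21 of the 23 among them) and all 24 with a block for ES libraries (993, 437 and 556). At an adjusted p below 0.1, 82 passed (56 and 26). Whether a named gene stayed below the threshold also depended on the fit. Of 68 named genes that did not pass in the main fit, 23 passed with DESeq2 and 25 without the filter. All 24 libraries gave 23 of the 68 without the block and 48 with it. The 4 libraries alone gave 28 of 67, and RLE size factors and halved counts gave 0. Without the replicate block the 8 ES libraries gave 0 calls in either direction. Leaving out a 0 h or 24 h library gave 1 to 31 calls (0 to 19 lower, 1 to 12 higher), with 1 call without either 24 h library, where the lone 24 h library is assumed to vary like the other groups. The 23 genes kept their sign under every alternative run. Signs turned when a library was left out: over the 4 fits that leave out a 0 h or 24 h library, Vcan ran from -0.95 to 0.0208, Sox2 from -0.26 to 0.0325, Chd8 from -0.54 to 0.0890 and Ahrr from -0.17 to 2.20, the turned signs coming without the 0 h library of replicate 1 and, for Ahrr, also without the 24 h library of replicate 1 (-0.0106); the cause was not tested. Genes 2-fold apart in both numbers were 66 lower and 32 higher with a mean of at least 5 CPM, and 51 and 17 with 2 CPM added, when 0 moved in opposite ways. In differentiation, all 24 libraries in 1 fit gave 313, 803 and 1564 changed genes on days 2, 4 and 6 instead of 4126, 5318 and 6588, with 17, 18 and 16 of the fallen genes lower and 2, 2 and 3 of the risen genes higher. Leaving out a library gave 2214 to 7719 on day 2 (fewer without either control library, most without auxin replicate 2), 3320 to 3739 on day 4 (fewest without control replicate 2) and 4630 to 4785 on day 6, and changed no count of the fallen or risen genes, nor did a replicate block. With the stricter letters the share of all genes with a promoter match was 3.33%. Depth limits genes below about 1 CPM most, above all in replicate 1.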
